A study of Mus musculus with 8 samples.

Results

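The 10 genes described here encode inhibitors of Wnt signalling: the feedback genes Axin2, Nkd1, Nkd2, Znrf3 and Rnf43, and the genes of secreted inhibitors Notum, Dkk1, Dkk3, Sfrp1 and Wif1. They were chosen by name, through the RefSeq accession of each array probe, out of 20284 genes named on the array. All 10 had at least 1 probe, and 9 entered the test among 17737 genes. Dkk1 did not, because its probe was not well above background on any array. Whole mouse skin was hybridised to 8 one-colour oligonucleotide arrays, 4 of skin labelled Control and 4 of skin labelled DTG. The series title names overexpression of the RNA-binding protein Musashi1, encoded by Msi1. The labels spell out neither DTG nor a strain, an age or the promoter of a transgene, and all samples are labelled male.

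Wnt ligands bind Frizzled receptors and an LRP co-receptor, which stops the destruction complex from degrading beta-catenin, so that beta-catenin can act with TCF/LEF factors on target genes. Several of these targets encode inhibitors of the same pathway and so form a negative feedback, and secreted inhibitors act on ligands or receptors outside the cell. In skin the pathway is known for its part in the formation and the growth cycle of hair follicles and in the upkeep of the basal epidermis.

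Of the 9 tested genes, 5 were lower in DTG skin and 0 were higher, while 4 did not pass the test. The 5 were the feedback genes that act inside the cell or in its membrane. Among them Znrf3 was kept through its Control signal alone, with no DTG array well above background. Over all tested genes, 32.4% were called, 21.3% lower and 11.1% higher (limma, Benjamini-Hochberg adjusted p under 0.05). None of the 4 tested genes for secreted proteins passed. Whether the feedback genes and the secreted inhibitors differed from each other was not tested. The result depends on the probe that stands for a gene. With the kept probes of each gene averaged, 3 genes were called lower, and Axin2 and Nkd1 were not. It also depends on the scale. Signals were set relative to each array's 75th percentile, and on that scale the median log2 fold change of all genes was -0.15. When arrays were scaled on their spike-in spots that median was 0.32, Znrf3 alone of the 9 genes was called lower, against 2.74% of all genes, and Notum, Dkk3 and Sfrp1 were called higher, against 33.8% of all genes. The 3 higher calls of 9 are thus near the share of all genes on that scale. On the 75th percentile scale 65.6% of all calls were lower in DTG, without scaling 41.7% and on the spike-in scale 7.51%. Changes are therefore also given below relative to the median of all genes, which is the same on the 75th percentile, unscaled and spike-in scales. As this is bulk tissue, fewer cells of a type and less RNA per cell cannot be told apart.

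The arrays differed between the groups in ways that touch dim probes. Signal exceeded background clearly, by the scanner software's own flag, at 79.5% to 85.1% of spots in Control and 68.8% to 71.6% in DTG; such spots are called well above background here. The mean log2 signal of negative-control spots, relative to the 75th percentile, was -9.36 to -8.40 in Control and -7.60 to -7.36 in DTG. The part of these differences in the results below was not tested. All arrays lay on 1 slide, with Control in one slide row and DTG in the other, and the effect of the row cannot be told apart from that of the group. The Y-linked gene Eif2s3y and the inactive-X RNA Xist read as female on 5 arrays (2 Control, 3 DTG) and as male on 3 (2 Control, 1 DTG), against the label, and results are given below within these classes. Msi1 was high in DTG on 1 of its 2 probes, A_55_P2062688, where Control skin had -2.80 ± 2.11 (SD, n = 4) and DTG skin 4.01 ± 0.16 (SD, n = 3, after 1 outlier spot was left out). The other probe, A_51_P296866, read -3.11 ± 0.23 and -3.13 ± 0.15 (SD, n = 4 each).

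Promoter sequence was looked at because TCF/LEF factors bind near many feedback genes. Windows of 300 bases, 250 before and 50 after a RefSeq start (GRCm38.p6), were at hand for 6 of the 10 genes. They were searched on both strands for the letters CTTTGAA, for the letters CTTTGAT, for the letters CTTTGTA and for the letters CTTTGTT, the core of the TCF/LEF motif. Of all 32851 such windows, 16.9% held at least 1 match. Of the 6 genes, Dkk1 alone had a match, with CTTTGAA starting 117 bases and CTTTGTT starting 98 bases before its start. Axin2, Nkd1, Nkd2, Rnf43 and Wif1 had none of these letters in the window. The 250 bases before the start are shown for Axin2 and Nkd1, called lower together, and for Dkk1, below background throughout. Capitals mark the matches.
Axin2 (chr11:108920099-108920348, plus strand): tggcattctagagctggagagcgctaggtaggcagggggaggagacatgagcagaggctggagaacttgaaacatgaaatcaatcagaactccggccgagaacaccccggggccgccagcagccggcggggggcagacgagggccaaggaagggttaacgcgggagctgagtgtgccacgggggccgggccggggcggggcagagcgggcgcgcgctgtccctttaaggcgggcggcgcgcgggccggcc
Nkd1 (chr8:88527383-88527632, plus strand): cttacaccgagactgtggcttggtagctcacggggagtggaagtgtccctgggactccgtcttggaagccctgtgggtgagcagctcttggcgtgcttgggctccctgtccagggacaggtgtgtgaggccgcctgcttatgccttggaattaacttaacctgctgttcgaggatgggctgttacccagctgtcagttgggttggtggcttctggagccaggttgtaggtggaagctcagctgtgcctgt
Dkk1 (chr19:30549497-30549746, minus strand): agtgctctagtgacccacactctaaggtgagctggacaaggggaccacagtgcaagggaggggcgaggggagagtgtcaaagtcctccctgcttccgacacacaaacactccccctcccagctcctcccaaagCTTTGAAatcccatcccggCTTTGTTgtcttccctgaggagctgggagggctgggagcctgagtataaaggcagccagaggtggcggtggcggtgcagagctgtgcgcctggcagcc
A match or its absence describes these letters only.

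Axin2 encodes a scaffold of the destruction complex and is a widely used TCF target. On its brighter probe, A_55_P2000783, the log2 level relative to the 75th percentile was -1.53, -1.57, -1.33 and -1.34 on the Control arrays and -2.45, -1.97, -2.28 and -1.95 on the DTG arrays. All DTG arrays lay below all Control arrays. Axin2 was 1.64-fold lower in DTG, a log2 fold change of -0.72 (SE 0.14, limma adjusted p = 0.0057), or -0.57 relative to the median of all genes. This placed it at percentile 9.42 of the log2 fold changes of all tested genes. The spike-in scale gave -0.25, which is not called (adjusted p = 0.338).

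Nkd1 and Nkd2 encode the Naked cuticle proteins, which bind Dishevelled inside the cell. The brighter Nkd1 probe, A_55_P1967736, read -1.42, -1.25, -1.58 and -1.03 on the Control arrays and -2.56, -2.11, -2.03 and -2.22 on the DTG arrays. The groups did not overlap. Nkd1 was 1.88-fold lower, at -0.91 (SE 0.16, limma adjusted p = 0.0038), or -0.76 relative to the median of all genes and percentile 5.15. Its change on the spike-in scale, -0.44, did not pass (adjusted p = 0.149).
The brighter Nkd2 probe, A_55_P2143279, read 3.15, 3.06, 3.10 and 2.96 on the Control arrays and 2.86, 2.82, 2.71 and 2.80 on the DTG arrays. Each DTG array was again below each Control array, but the gap was small. The log2 fold change of Nkd2 was -0.27 (SE 0.08, limma adjusted p = 0.037), a 1.21-fold decrease and only -0.13 relative to the median of all genes. It stood at percentile 35.9 of all genes, and on the spike-in scale it had the opposite sign, at 0.19 (adjusted p = 0.223). The Nkd2 call was lost when any array except Control 4 was left out, with adjusted p between 0.0526 and 0.0932.

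Znrf3 and Rnf43 encode transmembrane ubiquitin ligases that remove Frizzled receptors from the cell surface. Znrf3 read -4.31, -4.49, -4.87 and -4.47 on the Control arrays and -5.69, -5.88, -5.67 and -5.73 on the DTG arrays. Its probe was well above background on 4 of 4 Control arrays and 0 of 4 DTG arrays. Set against the lowest signals well above background on the DTG arrays, whose mean was -5.40, Znrf3 was at least 1.82-fold lower in DTG. This bound holds only for the scanner software's own background correction. The measured group means were -4.54 ± 0.24 and -5.74 ± 0.09 (SD, n = 4 each, limma adjusted p = 0.00047). The probe passed the filter through Control alone, so the p-values and calls of Znrf3 compare Control with DTG values below the flag. They add no support beyond the bound. Znrf3 was also called lower on the spike-in scale, with a fitted change of -0.74 (adjusted p = 0.0084) and a bound there of at least 1.31-fold. With another background correction, normexp with an offset of 50, its fitted change was -0.43 in place of -1.21, and the call held. That change is smaller in size than the bound above, which is 0.86 on the log2 scale.
Rnf43 read -0.25, -0.29, 0.11 and 0.01 on the Control arrays and -1.30, -1.03, -0.75 and -0.69 on the DTG arrays. The groups did not overlap, and DTG 1 was the lowest, as it was for Axin2 and Nkd1. Rnf43 was 1.79-fold lower, at -0.84 (SE 0.16, limma adjusted p = 0.0060), or -0.69 relative to the median of all genes and percentile 6.51. On the spike-in scale it read -0.37 and did not pass (adjusted p = 0.197).

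**Figure D1:**
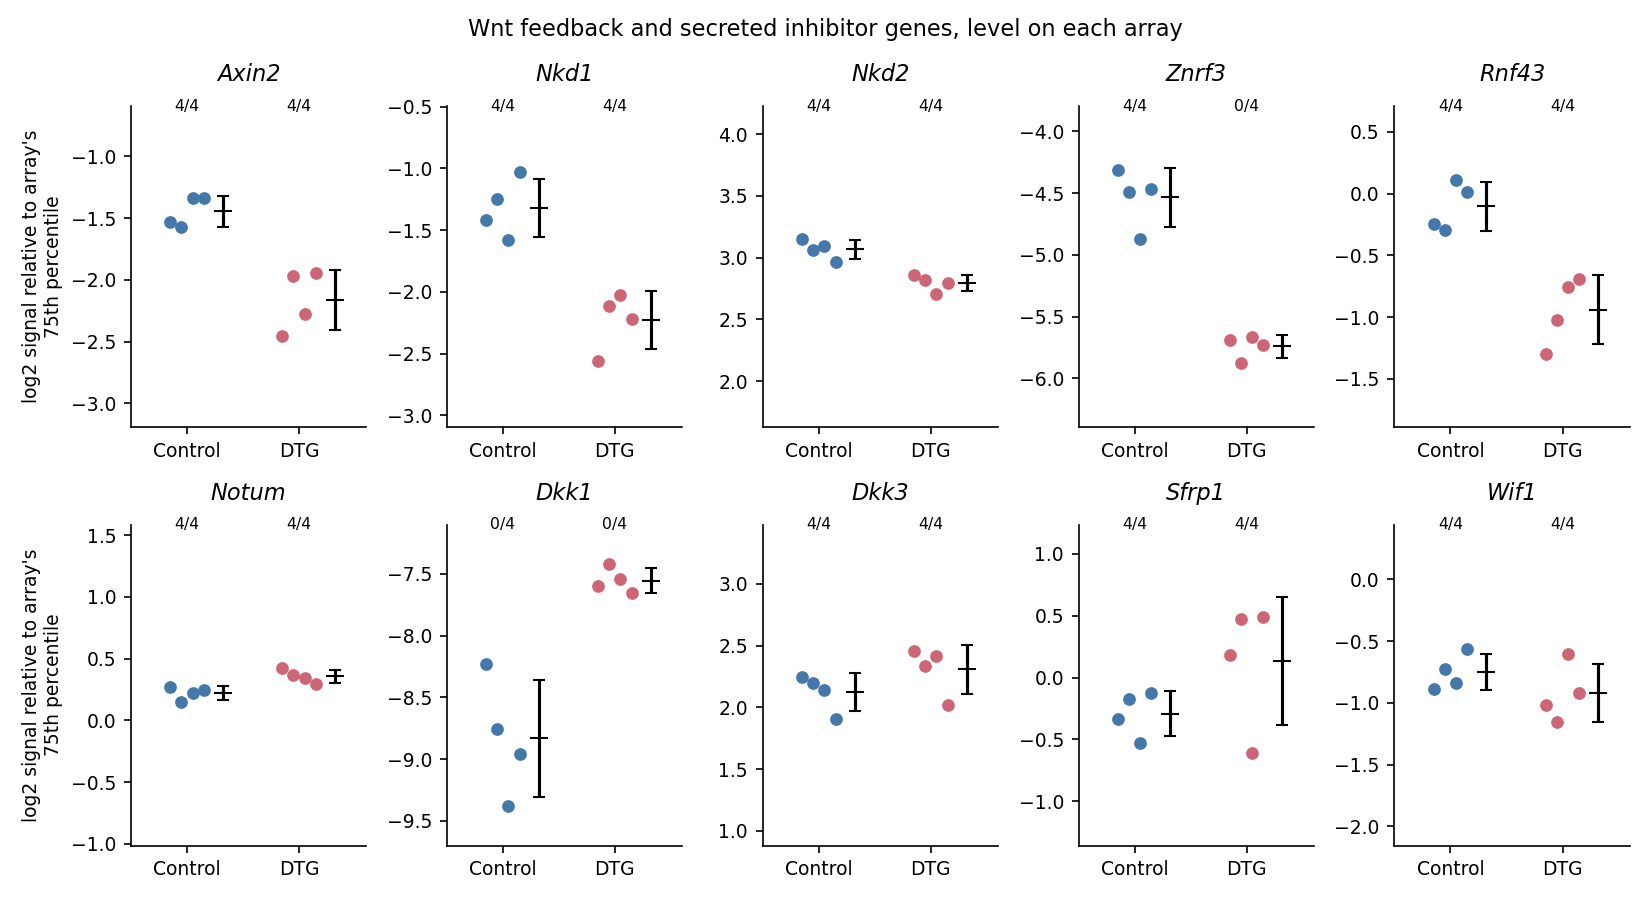
Log2 signal of each gene relative to the array's 75th percentile, 1 point per array (4 Control, 4 DTG), with mean and SD beside the points. Vertical axes span the same range but differ in position, and the numbers above the points give arrays well above background. Axin2, Nkd1, Nkd2, Znrf3 and Rnf43 were called lower in DTG on this scale. Of them Znrf3 was also called on the spike-in scale, where Nkd2 had the opposite sign. Axin2 and Nkd1 were not called when their probes were averaged.

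Over all genes, 23.1% had every DTG array below every Control array and 11.4% had every DTG array above. Among the 9 tested genes these counts were 5 and 1, the 1 being Notum. The 5 include Znrf3, which was kept through Control alone, so its lack of overlap adds no support. Notum encodes a secreted carboxylesterase that strips the lipid from Wnt proteins. Its level was 0.27, 0.15, 0.22 and 0.25 on the Control arrays and 0.42, 0.37, 0.34 and 0.30 on the DTG arrays. The change was 0.13 (SE 0.08, 95% interval -0.04 to 0.31), which did not pass (limma adjusted p = 0.216). Relative to the median of all genes it was 0.28.

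Dkk3, a divergent member of the Dickkopf family, read 2.24, 2.20, 2.14 and 1.90 on the Control arrays and 2.46, 2.34, 2.42 and 2.02 on the DTG arrays. The groups overlapped because DTG 4 lay below 3 of the 4 Control arrays. The change was 0.19 (SE 0.13, 95% interval -0.10 to 0.48, limma adjusted p = 0.281).
Sfrp1 encodes a secreted Frizzled-related protein that binds Wnt ligands. It read -0.34, -0.18, -0.53 and -0.13 on the Control arrays and 0.18, 0.47, -0.61 and 0.49 on the DTG arrays. DTG 3 lay below every Control array and the other 3 DTG arrays above them. With all arrays the change was 0.43 (SE 0.24, 95% interval -0.12 to 0.97, limma adjusted p = 0.202), and without DTG 3 it was 0.68 (adjusted p = 0.0115), called higher.
Wif1, the secreted Wnt inhibitory factor, read -0.88, -0.72, -0.84 and -0.56 on the Control arrays and -1.02, -1.15, -0.60 and -0.92 on the DTG arrays. The change was -0.17 (SE 0.14, 95% interval -0.48 to 0.14, limma adjusted p = 0.355), and -0.02 relative to the median of all genes. On the spike-in scale it was 0.30.

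Dkk1 encodes a secreted protein that binds the LRP co-receptors. Its probe, A_51_P379069, was well above background on 0 of 4 Control and 0 of 4 DTG arrays. It read -8.23, -8.76, -9.38 and -8.96 on the Control arrays and -7.60, -7.42, -7.54 and -7.66 on the DTG arrays. The Dkk1 means, -8.83 and -7.56, lay inside the ranges of the negative-control spots, -9.36 to -8.40 in Control and -7.60 to -7.36 in DTG. No change in Dkk1 mRNA was measurable on these arrays.

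**Figure D2:**
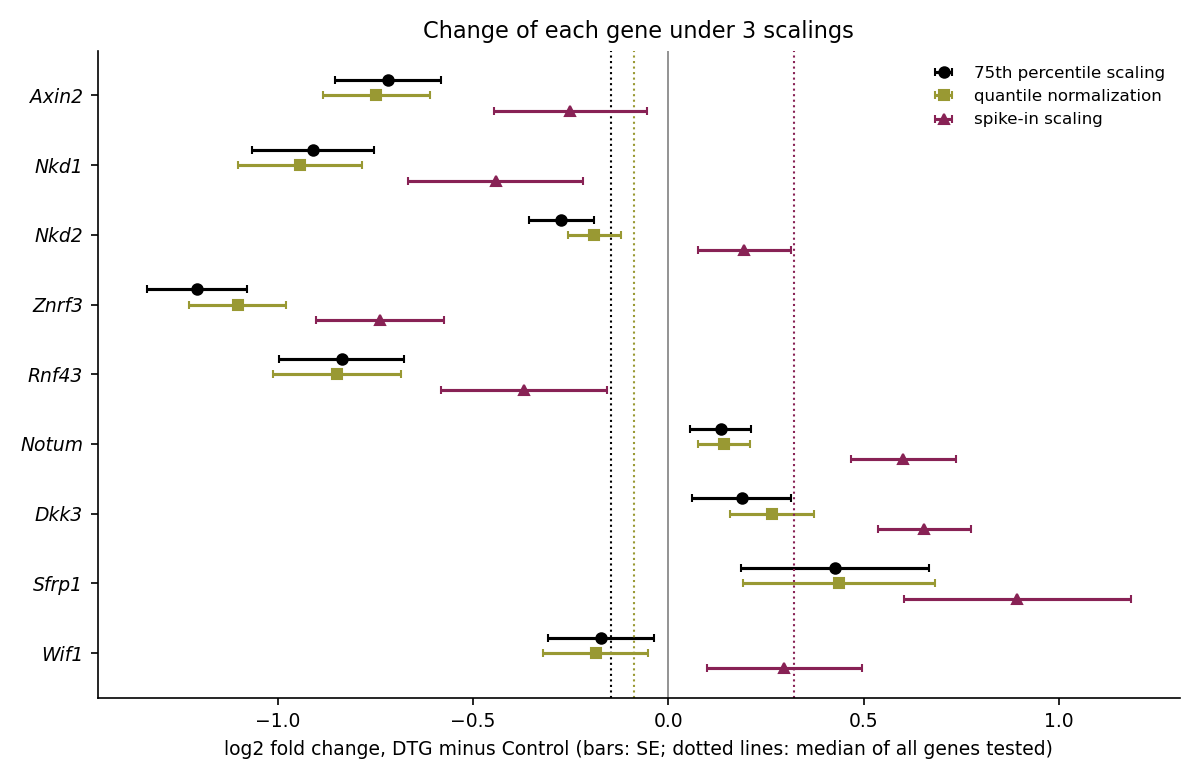
Log2 fold change (DTG minus Control) of the 9 tested genes, with SE, under 75th percentile scaling, quantile normalization and spike-in scaling, and dotted lines at the median of all genes under each. Values under spike-in scaling lie to the right of the others, and the order of the genes is nearly the same. Axin2, Nkd1, Znrf3 and Rnf43 lie left of the median under all 3 scalings, and so, by less, do Nkd2 and Wif1. Under 75th percentile and spike-in scaling this position is the same by construction, because they differ by a constant per array. Nkd2 and Wif1 change sign on the spike-in scale.

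Of the 10 genes, 3 had 2 probes well above background in at least 1 group, and the dimmer probes were compared in a separate fit over 23168 probes, of which 19.8% were called lower and 11.6% higher. The dimmer Axin2 probe, A_66_P134405, read -4.89, -4.75, -4.26 and -4.91 on the Control arrays and -4.54, -4.11, -4.12 and -4.20 on the DTG arrays. It thus leaned the other way from the brighter probe, by 0.46 (SE 0.17, limma adjusted p = 0.069), and did not pass. The log2 ratio of the brighter to the dimmer Axin2 probe, which a constant shift of an array, as in 75th percentile or spike-in scaling, cannot change, was 3.26 ± 0.27 in Control and 2.08 ± 0.17 in DTG (SD, n = 4 each; exact two-sided permutation p = 0.0286, the smallest possible, and 0.0858 adjusted over 3 genes). The average of the 2 Axin2 probes changed by -0.13 and was not called (adjusted p = 0.50). Where in the transcript these probes lie was not analysed here.

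The dimmer Nkd1 probe, A_55_P2118694, read -5.82, -5.84, -5.76 and -5.71 on the Control arrays and -3.24, -6.66, -6.17 and -5.99 on the DTG arrays. DTG 1 stood far above the others and was the only DTG array with this probe well above background. On the brighter probe DTG 1 was the lowest array. The change on the dimmer probe was 0.27 (SE 0.65, limma adjusted p = 0.775), and for the ratio of the Nkd1 probes the exact permutation test, two-sided, gave p = 0.114. Averaged over both probes Nkd1 changed by -0.32 and was not called (adjusted p = 0.425).
The dimmer Nkd2 probe, A_55_P2143282, had the same sign as the brighter one, at -0.39 (SE 0.17, limma adjusted p = 0.109). The ratio of the Nkd2 probes was 4.27 ± 0.24 in Control and 4.39 ± 0.28 in DTG (SD, n = 4 each; exact two-sided permutation p = 0.514).

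**Figure D3:**
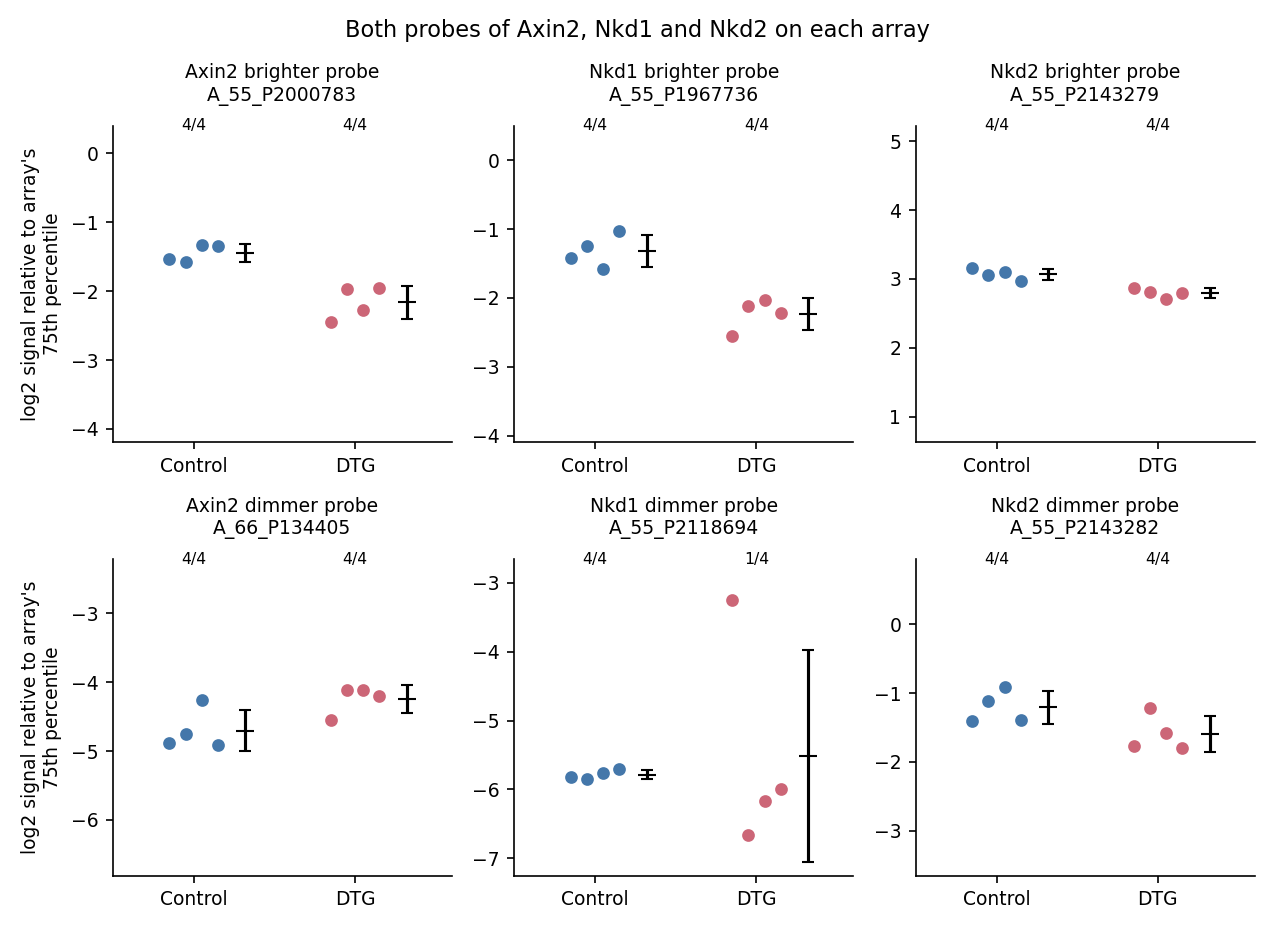
Log2 level relative to the array's 75th percentile on both probes of Axin2, Nkd1 and Nkd2, 1 point per array, with mean and SD; numbers above the points give arrays well above background. The Axin2 probes lean in opposite directions, the Nkd2 probes in the same one, and DTG 1 stands apart on the dimmer Nkd1 probe at -3.24.

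Within the 5 arrays of high Xist (2 Control, 3 DTG), Znrf3 and Nkd1 were called lower, with limma adjusted p of 0.0074 and 0.0248, against 7.9% of all genes. Znrf3 was kept through Control alone, so its call on the arrays of high Xist adds no support. Axin2 read -0.77 (adjusted p = 0.0523), Rnf43 -0.77 (0.0811) and Nkd2 -0.22 (0.214) there. Within the 3 arrays of low Xist, where DTG has a single array whose spread is taken from Control, 0 of the 9 genes were called, against 0.459% of all genes called lower, so the count says little. There Axin2 read -0.54, Nkd1 -0.61, Nkd2 -0.31 and Rnf43 -0.96, each below 0 in both classes. Sfrp1 read 0.17 in the high class and 0.90 in the low class. The interaction between group and Xist class rests on the single DTG array of the low class. It therefore cannot tell whether the change differs between the classes. Among the 9 genes it ran from -0.73 (SE 0.52) for Sfrp1 to 0.18 (SE 0.38) for Rnf43 on the log2 scale.

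The other genes of the pathway were read from 6 lists. Among 15 tested genes of other secreted or membrane-bound Wnt antagonists, 6 were called lower (21.3% of all genes were), 0 higher and 9 neither, with a median log2 fold change of -0.55. The 6 include Dkk4, for which no fall was measurable: it was below background on all DTG arrays and its Control mean was under their floor. With Dkk4 set to no change the median was -0.24. Kremen2, which encodes a receptor for Dickkopf proteins, fell by 1.62 on the log2 scale (SE 0.11, limma adjusted p = 9.2e-05) and was the only gene of this list called lower on the spike-in scale. There 2 genes of the list were called higher, against 33.8% of all genes. These were Trabd2b at 0.78 and Tpbg at 0.48 (limma adjusted p = 0.0154 and 0.026), where the median of all genes was 0.32. Sfrp5, a close relative of Sfrp1, read -0.55 (SE 0.13) and Apcdd1, a membrane inhibitor of Wnt signalling, -0.82 (SE 0.20), both called lower on the 75th percentile scale and not on the spike-in scale. Kremen1 read -0.03 and Sostdc1, a secreted Wnt and BMP antagonist, 0.04, and neither passed.

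The R-spondins and LGR receptors, which clear ZNRF3 and RNF43 from the membrane, showed 1 of 7 genes called higher and 1 lower. Over all genes these shares were 11.1% and 21.3%. On the spike-in scale 1 was higher and 0 lower, against 33.8% and 2.74% of all genes. Lgr6 rose by 0.46 on the log2 scale (SE 0.15, limma adjusted p = 0.0421; 0.93 on the spike-in scale). Rspo2 was called lower with 0 of 4 DTG arrays above background, and its Control mean of -6.14 was under the DTG floor, and it has no fold. Lgr4 and Lgr5 read -0.05 and -0.30 and did not pass.

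Of 9 tested TCF target genes outside the feedback group, 3 were called lower (21.3% of all genes were), 0 higher and 6 neither, with a median of -0.43. Spike-in scaling gave 1 lower and 1 higher, against 2.74% and 33.8% of all genes. The higher one was Cd44, a cell adhesion gene, at 0.46 (limma adjusted p = 0.0131). Tnfrsf19, a TNF receptor family gene, fell by 1.63 (SE 0.22, limma adjusted p = 0.0013) and also passed on the spike-in scale. Ascl2 fell by 0.70 and Ccnd1, the gene of cyclin D1, by 0.43 on the 75th percentile scale, and neither passed on the spike-in scale. Sp5 read -0.86 (adjusted p = 0.0501) and Lef1 -0.58 (adjusted p = 0.053), just outside the threshold.

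Among 12 genes of the destruction complex, Dishevelled and beta-catenin, 4 were called lower and 1 higher, with a median of -0.16. Over all genes 21.3% were called lower and 11.1% higher, with a median of -0.15. On the spike-in scale the counts of this list were 0 and 6, against 2.74% and 33.8% of all genes. Btrc, which encodes the ubiquitin ligase subunit that recognises beta-catenin, read -0.75 (SE 0.10), Dvl1 -0.66 (SE 0.11), and Ctnnb1, the beta-catenin gene, 0.04 (SE 0.09). Axin1, the constitutive relative of Axin2, read -0.22 (SE 0.18, limma adjusted p = 0.365). Of 16 receptor and co-receptor genes 3 were called lower, 18.8% against 21.3% of all genes, and 0 higher, with a median of -0.22. Spike-in scaling gave 1 lower and 3 higher, against 2.74% and 33.8% of all genes. The 3 higher were Fzd1, Fzd3 and Lrp5. Fzd10 fell by 1.30 (SE 0.23) on the 75th percentile scale and was the lower one on the spike-in scale. Of 19 Wnt ligand genes 14 were called lower and 1 higher (21.3% and 11.1% of all genes were), with a median of -0.48. On the spike-in scale 4 were lower and 1 higher, against 2.74% and 33.8% of all genes. The 14 include Wnt9b, with no DTG array well above background and a bound of only 1.04-fold. It has no bound on the spike-in scale. Wnt3a was lower by a factor of at least 2.67 (1.93 on the spike-in scale); none of its 4 DTG arrays was above background, which sets the bound.

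**Figure D4:**
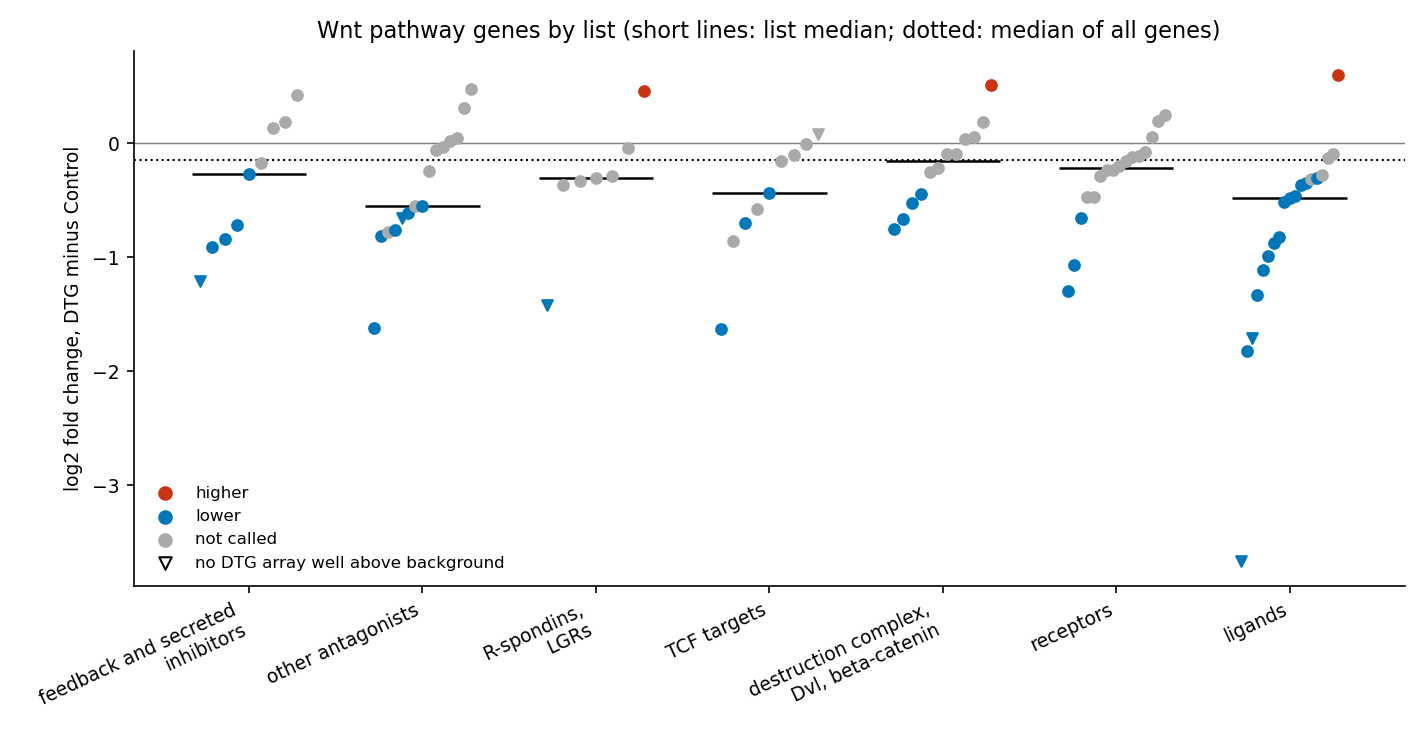
Log2 fold change (DTG minus Control) on the 75th percentile scale of every tested gene of 7 Wnt lists, coloured by call, with the list median (short line) and the median of all genes (dotted). Triangles mark genes with no DTG array well above background, whose fitted values are no measure of size. In each list most points lie below 0, as does the median of all genes, -0.15. On the spike-in scale the medians of the feedback and secreted inhibitors, R-spondin, TCF target, destruction complex and receptor lists lie above 0. They are still below the median of all genes there, 0.32.

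Several of these genes are expressed in hair follicles and basal epidermis, and markers of these cells were read on the same arrays. No marker of keratinocytes, bulge, dermal papilla, matrix and shaft or dermal fibroblasts was called lower on the spike-in scale. Only 2.74% of all genes were called lower there, so this says little about these cells. All 6 keratinocyte markers and all 8 hair follicle bulge markers were well above background on every array. Of the keratinocyte markers 3 were called lower and 1 higher (0 and 1 on the spike-in scale), with the log2 of their summed level at 6.65 to 7.04 in Control and 6.31 to 6.59 in DTG. Of the 8 bulge markers 5 were called lower, against 21.3% of all genes, and 0 higher, but without scaling 1 was lower and on the spike-in scale 0 were called either way. This share, 62.5%, is not particular to the bulge. It was 66.7% for the markers of adipocytes and for those of Schwann cells, 4 of 6 each. The log2 of the summed level, over the 6 bulge markers with a value on every array, was 4.63 to 4.89 in Control and 4.29 to 4.38 in DTG. Lhx2, a transcription factor gene of the bulge, read -0.55 (SE 0.09, limma adjusted p = 0.0028), and -0.08 on the spike-in scale (adjusted p = 0.645). Of 6 tested dermal papilla markers 1 was higher and 0 lower (2 and 0 on the spike-in scale), with summed levels of 2.34 to 2.65 and 2.76 to 3.43. The 1 on the 75th percentile scale was Alpl, at 1.42 (SE 0.36), while the list median was 0.12. Corin, Crabp1 and Sox18 read 0.14, 0.15 and 0.10 there, and Hhip and Rspo3 -0.85 and -0.36. The summed level thus does not show a rise of these markers as a group. Of 7 tested markers of the matrix and shaft of growing follicles 1 was lower and 0 higher (0 and 2 on the spike-in scale), with summed levels of 2.78 to 3.30 and 2.37 to 2.85. Of 6 dermal fibroblast markers 2 were lower and 0 higher (0 and 1 on the spike-in scale), with summed levels of 6.95 to 7.46 and 6.74 to 7.02. All summed levels are on the 75th percentile scale. The part of these cell types in the changes of the inhibitor genes was not tested.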

How the data were processed

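Each array's deposited scanner table gives spot intensity on a linear scale, from Agilent's Feature Extraction software (version 11.5.1.1 per the file headers; the submitters' processing notes name 10.7). The processed signal is the software's background-corrected intensity. Other columns deposited by the authors flag outliers, saturation and signal well above background. The authors' deposited values, for 43861 probes, hold the same intensity (for 99.6% the relative difference from the averaged processed signal was at most 0.001), so their table is linear and neither centred nor scaled. It served as an alternative.

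Accessions without version were matched to RefSeq symbols (GRCm38.p6), naming 26762 of 55681 probes (48.1%). The headers name build mm9, and no gene coordinates were used. Signals were put on the log2 scale, outlier-flagged spots were left out (0.744% of spots), spots of a probe were averaged, and each array's 75th percentile was subtracted. Probes well above background on at least 3 of 4 arrays of 1 group were kept, and the brightest kept probe stood for a gene. DTG was compared with Control in limma 3.58.1 (lmFit, eBayes, two-sided, R 4.3.3) with Benjamini-Hochberg adjustment over all genes tested; the fit was tested on simulated data. A group with every array below that flag gives only a bound on the fold ("at least"). Levels are mean ± SD, and precision is limited by having 4 arrays a group. The labels do not say whether the skins came from separate animals, so p-values reflect the spread among these 8 samples alone, part of which may be technical.

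Groups came from the tissue label, and replicates were numbered in deposit order, which equals the slide column. The labels state no pairing of animals. The genes, the lists and the rule for named genes were chosen with earlier results of these data known; that rule took all 10 genes with every probe and at most 3 called genes per pathway list. Genes named beyond it (Kremen1, Sostdc1, Lgr4, Lgr5, Sp5, Lef1, Ctnnb1, Axin1, Apcdd1, Sfrp5, Trabd2b, Tpbg, Cd44, Fzd1, Fzd3 and Lrp5 among them) were chosen after their values were seen, as was the comparison of probe ratios. The planned normexp setting used the median spot signal, because the tables hold no mean. Markers of adipocytes, skeletal muscle, endothelium, Schwann cells, melanocytes and macrophages were also read. Of 6, 6, 6, 6, 6 and 5 tested genes, 4, 1, 0, 4, 2 and 0 were called lower and 0, 0, 0, 0, 0 and 1 higher. Over all genes 21.3% were called lower and 11.1% higher. On the spike-in scale the counts were 1, 0, 0, 0, 0 and 0 lower and 0, 0, 0, 1, 0 and 1 higher, against 2.74% and 33.8% of all genes.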

Additional observations from a re-analysis of the deposited data

How the results depend on the processing

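The 5 lower calls were recomputed under 22 other settings, of which the arrays of low Xist were added after seeing the data. Znrf3 kept its call under 20 of the 21 it could be tested in, being left out with probes above background on all arrays. For Znrf3 this count is no support, because its DTG values lay below the flag throughout. Nkd1 and Rnf43 kept their calls under 19 of 22, Axin2 under 18 and Nkd2 under 7. The count of the 9 genes called lower was 1 on the spike-in scale, 3 with the average of probes, 2 within the arrays of high Xist and 0 within those of low Xist. The count called higher was 3 on the spike-in scale and 1 with no filter on dim probes, where the 1 was Dkk1, at background on all arrays. Leaving out 1 array gave 4 to 5 lower and 0 to 1 higher, the 1 being Sfrp1 without DTG 3. On the spike-in scale Nkd2 read 0.19 and Wif1 0.30, opposite in sign to the values reported; the cause was not tested. Of all genes, 2593 were called within the arrays of high Xist, 249 within those of low Xist and 3832 without scaling, against 5755, and 4067 to 5159 with 1 array left out. With the slide column as a replicate block 4341 genes were called, 64.5% of them lower. Of the 9 genes 4 were called there, all lower, Nkd2 being lost (limma adjusted p = 0.0848). Deviations of arrays in the same column correlated at -0.32 to 0.33, which cannot decide whether samples are paired. Signal over background limits Znrf3 and the dimmer Nkd1 probe in DTG, and Dkk1 everywhere.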
